A study of Mus musculus with 20 samples.

Results

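Tfh and non-Tfh RNA was compared among Tomato- CD4 T cells, the antigen-specific helper cells of an immunized lymph node that carry no mark of T-bet expression. The comparison rests on 4 libraries of the 20 in the series, chosen by their sample titles: 2 of Tfh cells, sorted as CXCR5-high PD1-high, and 2 of non-Tfh cells, sorted as CXCR5-low PD1-low. All 4 came from mice on the C57BL/6 background that carry a T-bet-Cre allele and the Rosa26-loxP-STOP-loxP-tdTomato reporter. In such mice Cre made under T-bet control removes the stop cassette for good, so Tomato marks cells that make or once made enough T-bet for recombination, and Tomato- cells are those without that mark. Mice had been immunized with the peptide AS-15 in complete Freund's adjuvant, cells specific for AS15 were found by tetramer staining in draining lymph nodes on day 16, and both gates were applied by cell sorting. Age and sex of the mice are not stated. The 4 Tomato+ libraries of the same nodes, sorted by the same gates with 2 per group, serve below as a second set.

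Follicular helper T cells (Tfh) are CD4 T cells that enter B cell follicles, sustain germinal centres and select B cells through CD40 ligand, interleukin 21 and interleukin 4. The repressor BCL6 directs this fate and opposes BLIMP1, the product of Prdm1, which drives the alternative effector fate. CXCR5 follows the chemokine CXCL13 into the follicle, whereas loss of CCR7, PSGL1 and the sphingosine phosphate receptor S1PR1 lets the cells leave the T cell zone and stay in the node. T-bet, encoded by Tbx21, is the regulator of the T helper 1 (Th1) fate.

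Reads over genes ranged from 13169625 in non-Tfh replicate 2 to 20225695 in Tfh replicate 1, and 11155 to 11634 genes had at least 1 read in these 4 libraries. Levels below are RPKM, reads per kilobase of transcript scaled by the authors to the size of each library, and fold changes are log2 values of Tfh minus non-Tfh cells with the standard error (SE) of the fit. The libraries were noisy: the common biological coefficient of variation over the 8 lymph node libraries was 0.908, and log-scale correlations across genes between the 4 libraries lay between 0.729 and 0.763, with 0.763 for the Tfh pair and 0.76 for the non-Tfh pair. Of genes with a mean of at least 5 RPKM, 1.95% differed more than 10-fold between the Tfh replicates and 4.58% between the non-Tfh replicates. Whether the 2 libraries of a group came from different mice is not stated, and p-values therefore reflect only library-to-library spread, possibly technical. In these bulk samples fewer cells that make a transcript and less of it per cell cannot be told apart.

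The labelled cell type was checked against its defining genes. Among 15 genes of CD4 T cell identity none passed the test, and their median log2 fold change was 0.02. Cd4 itself stood at 340 and 405 RPKM in the Tfh libraries and at 405 and 444 RPKM in the non-Tfh libraries, and Cd3e at 197 and 284 against 258 and 202 RPKM. Thy1, Cd5 and Cd28 did not overlap and were lower in Tfh cells without passing. Thy1, a surface glycoprotein gene of T cells, was at 32.4 and 29.1 against 77.4 and 81.5 RPKM (-1.42 ± 0.24, adjusted p = 0.0882), and Cd5 and Cd28 each had a value of -0.54. Transcripts of other cells were present too. H2-Ab1, an MHC class II gene made by antigen-presenting cells, stood at 961 and 577 against 1288 and 1084 RPKM, and the lysozyme gene Lyz2 of macrophages and neutrophils at 666 and 827 against 948 and 898 RPKM.

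Summed over 16 B cell markers, which include 4 MHC class II pathway genes, levels were 2771 and 2085 RPKM in Tfh and 4002 and 3452 RPKM in non-Tfh libraries. The 16 macrophage and monocyte markers summed to 1269 and 1442 against 1638 and 1746 RPKM, and the 12 NK and innate-like markers to 175 and 158 against 289 and 265 RPKM. Non-Tfh libraries were above both Tfh libraries in these 3 sums, but a few genes made the separation. Without H2-Aa, H2-Ab1, H2-Eb1 and Cd74 the other 12 B cell markers summed to 143 and 150.0 against 134 and 165 RPKM. Without Lyz2 and Apoe the other 14 macrophage markers summed to 450.0 and 496 against 435 and 497 RPKM. Without Tyrobp and Fcer1g the other 10 NK markers summed to 26.9 and 17.0 against 26.1 and 19.8 RPKM. These remainders overlap between groups, and the genes left out were chosen after their values were seen. Single markers also went the other way: Cd22, a B cell receptor inhibitor, was at 20.8 and 24.7 against 6.6 and 3.59 RPKM, and Lyz1 at 83.4 and 33.9 against 12.8 and 0.666 RPKM. Dendritic cell markers summed to 12.7 and 25.9 against 48.4 and 35.03 RPKM, plasma cell markers to 164 and 163 against 259 and 188 RPKM, and CD8 markers to 42.4 and 16.7 against 32.5 and 15.3 RPKM. The separation of the dendritic sums was made by Cd209a, at 6.02 and 6.59 against 40.5 and 13.2 RPKM. Xcr1 was lower in Tfh libraries too, while Siglech went the other way, at 1.09 and 4.84 against 0.0344 and 0.0440 RPKM. The sum of the 13 neutrophil markers split by replicate instead of by group: 38.0 and 58.7 RPKM in replicate 1 of Tfh and non-Tfh cells, and 536 and 455 RPKM in replicate 2. S100a8 made most of the replicate 2 sums, at 300 and 263 RPKM, with 9.70 and 0.945 RPKM in replicate 1. S100a9 and Ngp split the same way. Not all members did: Cxcr2 and Csf3r were highest in non-Tfh replicate 1, at 2.83 and 2.31 RPKM. The erythroid sum split by replicate too, at low levels (0.381 and 0.291 RPKM in replicate 1, 22.6 and 3.94 RPKM in replicate 2). Of 10 stromal and endothelial markers, 7 were at 0 in all 4 libraries. Germinal centre B cell markers summed to 202 and 164 against 77.6 and 39.9 RPKM, a sum made mostly by Bcl6 and Fas, which T cells also express, while Mybl1 was at 0 in all 4 libraries. None of the markers passed the test except Bcl6, and the part of these cells in the results below was not tested.

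**Figure D1:**
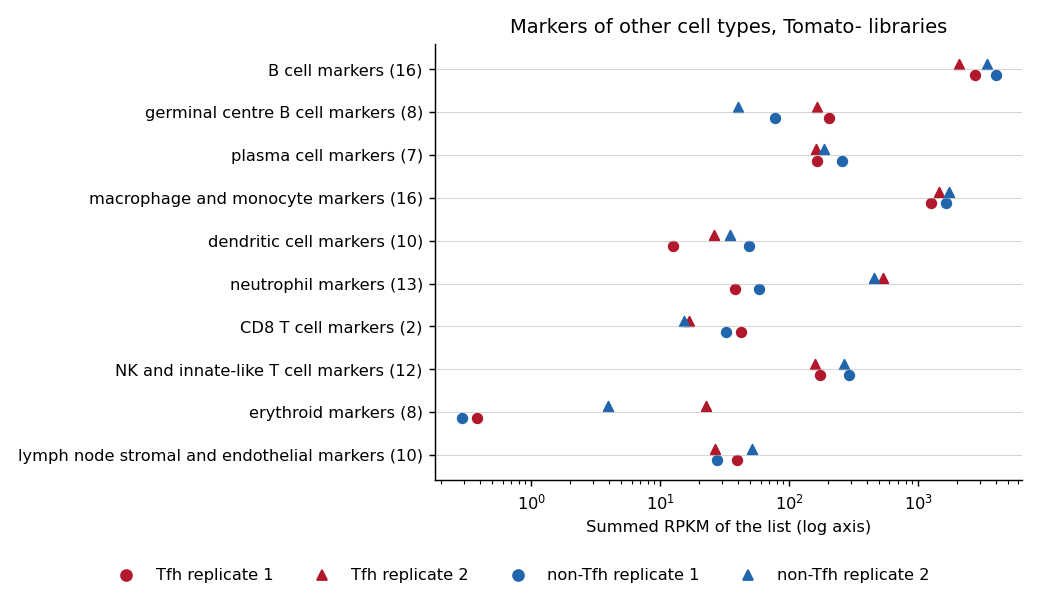
Summed RPKM (log axis) of the markers of 10 other cell types in each Tomato- library, with the number of genes in brackets; circles are replicate 1, triangles replicate 2, red Tfh and blue non-Tfh. Neutrophil and erythroid sums separate by replicate, with neutrophil sums of 536 and 455 RPKM in the replicate 2 libraries, while B cell and macrophage sums are higher in both non-Tfh libraries, a separation made by 4 MHC class II pathway genes and by Lyz2 and Apoe.

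At an adjusted p below 0.05 (edgeR quasi-likelihood test, Benjamini-Hochberg over all 11746 genes tested) 21 genes differed between Tfh and non-Tfh cells of the Tomato- fraction, 10 higher in Tfh cells and 11 lower. That is 0.179% of the genes tested, 0.0851% higher and 0.0936% lower. The genes that rose include the Tfh regulators Bcl6, Ascl2 and Tox, the inhibitory receptor gene Pdcd1, whose product the gate used, and the secreted antagonist gene Sostdc1. Tox was 3.76-fold, Sostdc1 4.25-fold and Ascl2 119-fold higher. The genes that fell include the egress receptor gene S1pr1, the adhesion ligand gene Selplg, the cytokine signalling inhibitor Cish and the interferon gamma receptor gene Ifngr1. In all 21 genes the Tfh and non-Tfh replicates did not overlap, a property that 20% of tested genes had in the higher direction and 17% in the lower. At an unadjusted p below 0.05 there were 1061 genes (9.03%), 538 higher (4.58%) and 523 lower (4.45%). DESeq2, fitted to the same 8 libraries, called 607 genes (5.23%), among them all 21, with 318 higher (2.74%) and 289 lower (2.49%).

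The call of a single gene depended on each library. Fits that left out 1 Tomato- library kept 4 of the 21 calls without Tfh replicate 1, 9 without Tfh replicate 2, 6 without non-Tfh replicate 1 and 7 without non-Tfh replicate 2. S1pr1, Selplg and Abhd4 passed in all 4 of these fits, Cish in 3, Pdcd1, Anxa6 and Emp1 in 2, and Bcl6, Ascl2, Sostdc1, Nanos1 and Ahnak in 1, while the other 9 passed in none. Without both replicate 2 libraries, in which neutrophil transcripts were high, edgeR called 0 genes, with 850 at an unadjusted p below 0.05. That fit has a single library in each group and assumes that it varies like the Tomato+ libraries. With the 4 Tomato- libraries alone edgeR also called 0, with 887 at an unadjusted p below 0.05, whereas DESeq2 on the same 4 libraries called 441, all 21 among them.

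**Figure D2:**
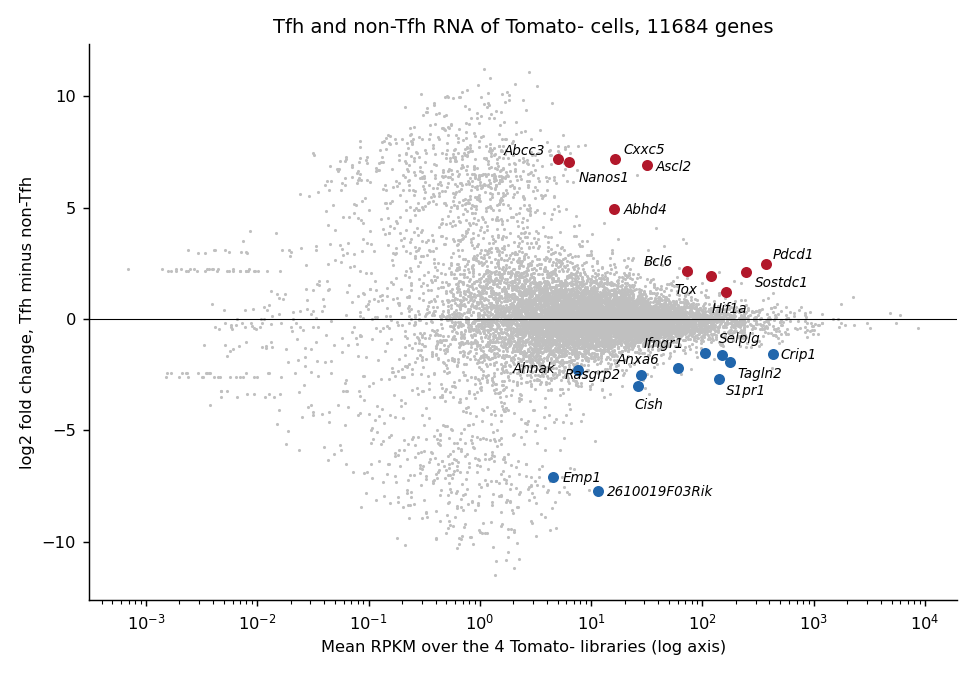
Log2 fold change of Tfh minus non-Tfh cells against the mean RPKM of the 4 Tomato- libraries (log axis) for the 11684 tested genes with a read in them; red and blue points are the 10 genes that rose and the 11 that fell. Genes with the same fold change at lower levels are mostly grey, and the called genes stand at the edge of the cloud.

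Of 13 transcription factors known from Tfh differentiation, 3 rose and none fell, where 0.0851% of all genes tested rose and 0.0936% fell. In this list 11 of 13 had positive values, with a median log2 fold change of 0.80 against 0.00174 over all genes tested. Bcl6 was at 139 and 101 RPKM in the Tfh libraries and at 31.6 and 21.1 RPKM in the non-Tfh libraries. Both Tfh libraries stood well above both others, a 4.41-fold difference (log2 fold change 2.14 ± 0.27, adjusted p = 0.0302). Ascl2, a basic helix-loop-helix factor that induces Cxcr5, was at 80.8 and 44.7 RPKM against 0.332 and 0.686 RPKM. It was nearly off outside the Tfh gate, with 13 and 21 reads in the non-Tfh libraries, and its log2 fold change of 6.90 ± 0.76 (adjusted p = 0.0199) was the largest of the list. Tox, a nuclear factor of the HMG-box family, was at 207 and 171 against 51.0 and 46.2 RPKM, 1.91 ± 0.26 on the log2 scale (adjusted p = 0.0384).

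Promoter sequences were taken from RefSeq, build GRCm38.p6, as 300 bases from 250 before to 50 after an annotated start. They were found for 13 of the 21 genes. Bcl6 and Ascl2 are shown as the factors that separate the populations, and Cish as the STAT target among the genes that fell. Capitals mark the STAT core TTCNNNGAA, which is its own reverse complement and which BCL6 motifs resemble, and the E-box CANNTG, the kind of site that helix-loop-helix factors such as ASCL2 recognise. The Bcl6 window is the farther upstream of 2 annotated windows, at chr16:23988803-23989102 on the minus strand, the Ascl2 window lies at chr7:142969215-142969514 on the minus strand, and the Cish window at chr9:107296409-107296708 on the plus strand.
Bcl6: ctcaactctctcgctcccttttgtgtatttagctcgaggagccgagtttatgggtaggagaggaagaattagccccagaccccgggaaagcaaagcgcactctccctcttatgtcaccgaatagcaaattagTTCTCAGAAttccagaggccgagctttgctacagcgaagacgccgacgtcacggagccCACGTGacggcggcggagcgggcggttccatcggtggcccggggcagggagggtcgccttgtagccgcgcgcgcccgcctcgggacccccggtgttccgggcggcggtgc
Ascl2: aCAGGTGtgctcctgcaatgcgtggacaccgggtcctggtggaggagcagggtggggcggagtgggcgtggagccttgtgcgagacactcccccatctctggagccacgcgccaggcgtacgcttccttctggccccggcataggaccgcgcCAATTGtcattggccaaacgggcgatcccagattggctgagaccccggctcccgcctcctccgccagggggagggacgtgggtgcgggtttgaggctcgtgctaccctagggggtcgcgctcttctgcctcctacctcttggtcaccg
Cish: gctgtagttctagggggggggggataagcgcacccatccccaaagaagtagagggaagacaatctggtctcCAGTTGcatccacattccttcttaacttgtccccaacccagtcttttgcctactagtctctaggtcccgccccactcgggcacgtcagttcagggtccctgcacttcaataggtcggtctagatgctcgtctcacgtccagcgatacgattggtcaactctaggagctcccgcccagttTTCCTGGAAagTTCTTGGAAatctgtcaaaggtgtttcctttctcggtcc
Counted from base 1 at the 5′ end, Bcl6 had a STAT core at 133 to 141 and an E-box at 191 to 196. Ascl2 had no STAT core and E-boxes at 2 to 7 and 153 to 158. Cish had 2 STAT cores side by side at 251 to 259 and 262 to 270, just downstream of the annotated start, and an E-box at 72 to 77.

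Over all 32851 mouse promoter windows 8.3% held a STAT core and 72.3% an E-box. By gene, 8.56% of the 8320 tested genes with a window held a STAT core, against 1 of 6 genes that rose (Bcl6) and 2 of 7 that fell (Cish and Emp1). E-boxes were in 5 of the 6 and 4 of the 7, against 67.2%. The other cores were searched on both strands: CTTTGA of TCF7 and LEF1 (14.3% of tested genes, and in Bcl6, Cish and Emp1), TGANTCA of AP-1 (6.12%, and in Emp1) and CACCC of KLF factors (66.2%, in 6 of 6 and 6 of 7). These are matches of letters in a short window, with genes of several windows counted if any matched.

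The other Tfh factors did not pass over all genes. Tox2, the paralog of Tox, was at 178 and 277 against 53.2 and 50 RPKM (2.09 ± 0.46, adjusted p = 0.219), and Nfatc1, the calcium-responsive factor, at 161 and 167 against 89.1 and 92.4 RPKM (0.80 ± 0.16, adjusted p = 0.15). Pou2af1, a coactivator shared with B cells, was at 26.3 and 28.5 against 0.241 and 9.28 RPKM, so its groups separate but the non-Tfh replicates are far apart. Tcf7, which encodes TCF1 and acts upstream of Bcl6, was at 517 and 458 against 310 and 361 RPKM (0.49 ± 0.19, adjusted p = 0.508). Its partner Lef1 had a value of -0.24 ± 0.23, and Irf4, which is induced by antigen receptor signals, one of -0.46 ± 0.33. Batf, Id3 and Stat3 lay between 0.10 and 0.40, and Batf and Id3 were at -0.18 and -0.061 when 1 library was left out (Tfh replicate 1 and non-Tfh replicate 2). By unadjusted p below 0.05 the list had 6 genes higher and none lower, against 4.58% and 4.45% of all genes tested. By DESeq2 it had 5 higher and none lower, against 2.74% and 2.49% of all genes. This list and those below were chosen with earlier results of these data known, so such counts describe them and are no test.

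In the list of 22 Tfh surface and help genes, 2 rose (Pdcd1 and Sostdc1) and none fell, against 0.0851% and 0.0936% of all genes tested. The median of the list was 0.72. Pdcd1 and Cxcr5, both counted in these figures, were set by the gate, so their values only describe the sort. Outside the gate genes, Sostdc1 was the only call. Pdcd1, which encodes PD1, was at 715 and 547 RPKM in Tfh and 89.9 and 132 RPKM in non-Tfh libraries, a 5.48-fold difference. Cxcr5 was at 394 and 277 against 113 and 98.3 RPKM (1.62 ± 0.36), so its transcript was still present in cells gated low for the protein. Sostdc1, which encodes a secreted antagonist of BMP and Wnt ligands, was at 465 and 339 against 101 and 82.3 RPKM. It was well expressed in all 4 libraries and the groups stood 4.25-fold apart (2.09 ± 0.28, adjusted p = 0.0379).

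Help cytokines separated by group without passing over all genes. Il4, the switch and survival cytokine for germinal centre B cells, was at 144 and 104 RPKM in Tfh and 11.6 and 8.28 RPKM in non-Tfh libraries (3.60 ± 0.61, adjusted p = 0.0856). Il21, which drives B cell expansion and plasma cell formation, was at 51.0 and 23.7 against 4.97 and 5.95 RPKM (2.72 ± 0.64, adjusted p = 0.219). Sh2d1a, the gene of the adaptor SAP that stabilises contact with B cells, was at 329 and 261 against 85.5 and 90.4 RPKM (1.70 ± 0.28, adjusted p = 0.0772). In these 3 genes each Tfh library was above each non-Tfh library, and the adjusted p came closest to the threshold for Sh2d1a. DESeq2 called 8 genes of this list higher and 2 lower, against 2.74% and 2.49% of all genes.

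Not every gene associated with Tfh cells was higher in them. Icos, the costimulatory receptor gene, was at 163 and 157 RPKM in Tfh and 228 and 294 RPKM in non-Tfh libraries (-0.75 ± 0.18, adjusted p = 0.219). Il21r, the receptor for interleukin 21, was at 56.0 and 84.5 against 142 and 125 RPKM (-0.98 ± 0.23), and Cd84, a homophilic SLAM receptor gene, at 18.5 and 20.3 against 30.5 and 39.3 RPKM (-0.90 ± 0.31). These were the 3 members with an unadjusted p below 0.05 in the lower direction, beside 10 in the higher, among them the gate genes Pdcd1 and Cxcr5. Over all genes tested 4.45% were lower and 4.58% higher by that measure. Cd40lg, the main contact signal to B cells, overlapped between groups at 220 and 281 against 189 and 260 RPKM (0.11 ± 0.24). Cxcr4, the receptor that draws cells to the germinal centre dark zone, was at 26.9 and 42.1 against 54.3 and 50.5 RPKM (-0.65 ± 0.40), and Slamf6 at -0.26 ± 0.24. S1pr2, which keeps cells inside the germinal centre, was at 17.4 and 32.8 against 1.71 and 7.30 RPKM (2.42 ± 0.79, adjusted p = 0.425).

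**Figure D3:**
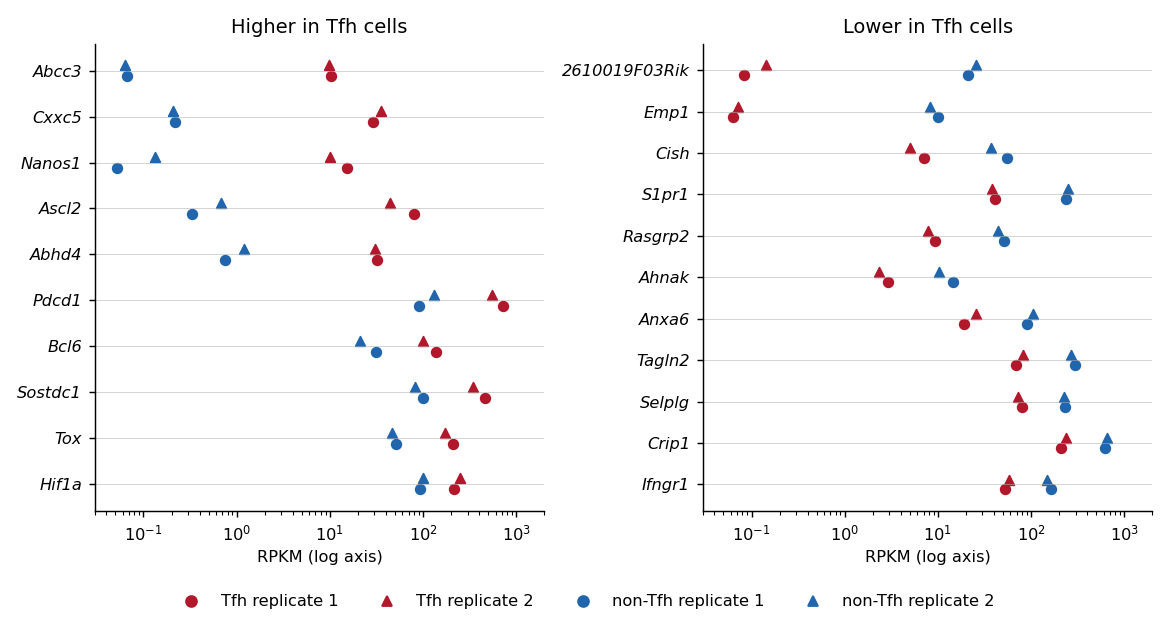
RPKM (log axis) in each Tomato- library for the 10 genes higher (left) and 11 genes lower (right) in Tfh cells at an adjusted p below 0.05; red Tfh, blue non-Tfh, circles replicate 1 and triangles replicate 2. Abcc3, Cxxc5, Nanos1, Ascl2, Emp1 and 2610019F03Rik are below 1 RPKM in both libraries of 1 group, while Pdcd1, Tox and S1pr1 are high in both and differ in level.

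Outside these lists 5 genes rose. Abhd4, a lipase gene of the N-acylethanolamine pathway, was at 32.4 and 30.2 RPKM in Tfh and 0.758 and 1.19 RPKM in non-Tfh libraries. Its replicates agreed closely in both groups, and its log2 fold change of 4.96 ± 0.48 (adjusted p = 0.0199) passed in each fit that left out 1 Tomato- library. Hif1a, the oxygen-sensing regulator of glycolytic genes, was at 216 and 249 against 91.9 and 99.9 RPKM, the smallest difference among the 10 (1.23 ± 0.15, adjusted p = 0.0271).

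Within the Tomato- fraction Cxxc5, Nanos1 and Abcc3 were almost silent outside the Tfh gate. Cxxc5, a zinc finger gene of Wnt and BMP signalling, was at 29.4 and 35.3 against 0.217 and 0.209 RPKM (12 and 9 reads). Nanos1, a gene of the RNA-binding Nanos family, was at 15.4 and 9.94 against 0.0524 and 0.134 RPKM. Abcc3, which encodes an organic anion exporter, was at 10.2 and 9.69 against 0.0658 and 0.0632 RPKM (8 and 6 reads). Their log2 fold changes were 7.18 ± 0.90, 7.03 ± 0.87 and 7.19 ± 0.996, with adjusted p of 0.0271, 0.0271 and 0.0426. Among tested genes with a higher group mean of at least 5 RPKM, 134 had group means more than 30-fold apart and 118 of these did not overlap between groups, but only 7 passed.

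Genes of exit from the lymph node and of recirculation were lower in Tfh cells. Of 16 genes for egress, recirculation and quiescence 1 fell and none rose, against 0.0936% and 0.0851% of all genes tested. In this list 13 had negative values and the median was -0.68. S1pr1, whose product follows sphingosine 1-phosphate out of the node, was at 41.2 and 37.6 RPKM in Tfh and 239 and 247 RPKM in non-Tfh libraries. Replicates lay close together and the groups 6.39-fold apart, with the smallest p of all genes (-2.68 ± 0.19, adjusted p = 0.00538).

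Further members of this list pointed down without passing. Ccr7, which holds cells in the T cell zone, was at 120 and 186 against 476 and 897 RPKM (-2.22 ± 0.36, adjusted p = 0.0718), and Il7r, the survival receptor of resting cells, at 12.4 and 28.1 against 98.8 and 117 RPKM (-2.47 ± 0.43, adjusted p = 0.0929). Klf2, which induces S1pr1, was at 112 and 155 against 267 and 224 RPKM (-0.92 ± 0.22, adjusted p = 0.229). In each of these genes both non-Tfh libraries were the higher ones. At an unadjusted p below 0.05 the list had 8 genes lower and 1 higher (Tcf7), against 4.45% and 4.58% of all genes tested. DESeq2 called 8 lower and none higher, against 2.49% and 2.74% of all genes.

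Of 22 genes of non-Tfh effector function and migration 4 fell and none rose, against 0.0936% and 0.0851% of all genes tested. The list had 19 negative values and a median of -1.0. Selplg, which encodes PSGL1, the selectin ligand that is lost on Tfh cells, was at 79.4 and 71.4 RPKM in Tfh and 230 and 223 RPKM in non-Tfh libraries (-1.64 ± 0.15, adjusted p = 0.0199). Crip1, a small LIM protein gene, was at 210 and 239 against 619 and 656 RPKM (-1.56 ± 0.21, adjusted p = 0.0384). Ahnak, which encodes a giant scaffold protein of the calcium response, was at 2.95 and 2.34 against 14.6 and 10.4 RPKM (-2.28 ± 0.25, adjusted p = 0.0199). Emp1, a tetraspan membrane protein gene, had 5 reads in each Tfh library (0.0629 and 0.0716 RPKM) against 9.89 and 8.29 RPKM, a log2 fold change of -7.09 ± 0.74 (adjusted p = 0.0199). Within the Tomato- fraction the first 3 were thus expressed in both populations and Emp1 almost exclusively in non-Tfh cells.

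By unadjusted p below 0.05 this list had 15 of 22 genes lower and none higher, where 4.45% of all genes were lower. By DESeq2 it had 13 lower and none higher, where 2.49% of all genes were lower. The list was chosen with earlier results of these data known, so these counts describe its members and test nothing. Next to the called genes stood Itgb7, the integrin subunit of gut homing, at 157 and 175 against 374 and 299 RPKM (-1.06 ± 0.16, adjusted p = 0.0669), and Gpr183, the oxysterol receptor gene EBI2, at 206 and 206 against 387 and 399 RPKM (-0.98 ± 0.15, adjusted p = 0.0676). Some members overlapped between groups. Lgals1 (-0.03 ± 0.17), Cd44 (0.01 ± 0.29) and S100a11 (0.00 ± 0.32) were among them.

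The remaining genes that fell were Tagln2, Anxa6, Rasgrp2 and a gene model. Tagln2, an actin-binding protein gene that stabilises the immune synapse, was at 68.5 and 82.1 RPKM in Tfh and 294 and 265 RPKM in non-Tfh libraries (-1.94 ± 0.21, adjusted p = 0.0199). Anxa6, a calcium-dependent membrane-binding annexin gene, was at 18.8 and 25.9 against 90.7 and 105 RPKM (-2.18 ± 0.25, adjusted p = 0.0199). Rasgrp2, whose product activates Rap1 and integrins in response to calcium, was at 9.35 and 7.74 against 51.2 and 43.7 RPKM (-2.52 ± 0.31, adjusted p = 0.0271). The non-Tfh libraries were 3.85- to 5.74-fold higher in these 3 genes. The model 2610019F03Rik, now named Tdrp, was at 0.0834 and 0.142 against 20.8 and 25.4 RPKM (-7.71 ± 0.96, adjusted p = 0.0271) and is left out by the naming rule as a gene model.

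Cytokine signalling genes gave 1 fall among 18 receptors and feedback genes, where 0.0936% of all genes tested fell. The list had a median of -0.44 and 12 negative values. Cish, the STAT5-induced inhibitor of cytokine and antigen receptor signals whose promoter is shown above, was at 7.003 and 5.01 RPKM in Tfh and 55.3 and 37.4 RPKM in non-Tfh libraries, 7.96-fold apart (-2.99 ± 0.31, adjusted p = 0.0199). Il2ra encodes the high-affinity subunit of the interleukin 2 receptor and is likewise a STAT5 target. It was low in all 4 Tomato- libraries, at 0.356 and 0.0616 against 1.98 and 4.53 RPKM (-4.00 ± 1.08, adjusted p = 0.281). The other feedback inhibitors Socs1 (0.45 ± 0.29) and Socs3 (-0.21 ± 0.29) did not pass. Il6ra and Il6st, the receptor chains for interleukin 6, had values of 0.47 ± 0.22 and 0.43 ± 0.26.

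Ifngr1, the ligand-binding chain of the interferon gamma receptor, was the single called gene among 30 Th1 and cytotoxic genes, against 0.179% of all genes tested. It was at 52.6 and 58.0 RPKM in Tfh and 163 and 148 RPKM in non-Tfh libraries, a 2.90-fold difference (-1.54 ± 0.17, adjusted p = 0.0199). The list as a whole had a median of -0.15, with 11 positive and 18 negative values. Tbx21 was at 12.8 and 12.9 against 10.4 and 10.5 RPKM (0.24 ± 0.32, adjusted p = 0.931), so among cells without the Tomato mark its transcript was low in both populations. Ifng was at 10.5 and 1.03 against 1.30 and 1.83 RPKM (1.84 ± 0.84, adjusted p = 0.574), its highest value being that of Tfh replicate 1 alone. Without that library the log2 fold change of Ifng was -0.63.

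Receptors for interleukin 18 and the death ligand gene were lower without passing. Il18rap was at 0.662 and 0.298 against 3.14 and 11.3 RPKM (-3.95 ± 0.71) and Fasl at 12.5 and 7.17 against 58.0 and 49.0 RPKM (-2.49 ± 0.45), both with an adjusted p of 0.0998. Klrg1, a receptor gene of terminal effectors, went the other way, at 1.39 and 4.67 against 0.151 and 0.116 RPKM (4.40 ± 0.97, adjusted p = 0.219). Among 19 interferon gamma response genes none passed and the median was -0.67. Igtp, a GTPase gene of cell-autonomous defence, was at 41.1 and 32.3 against 97.1 and 107 RPKM (-1.53 ± 0.23, adjusted p = 0.0597), and Irf1 at 80.8 and 107 against 225 and 179 RPKM (-1.16 ± 0.23). Both were lower in each Tfh library. The 20 type I interferon response genes showed no such direction, with 10 positive and 10 negative values, a median of 0.00 and a mean of 0.33.

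Regulators of other helper fates gave no call among 16 genes, with 13 negative values and a median of -0.86. Id2, which antagonises the E proteins that partner ASCL2, was at 91.6 and 98.5 RPKM in Tfh and 241 and 184 RPKM in non-Tfh libraries (-1.21 ± 0.20, adjusted p = 0.077). Prdm1 was low, at 0.180 and 1.55 against 5.24 and 6.02 RPKM (-2.76 ± 1.55, adjusted p = 0.642). Foxp3, the regulator of regulatory T cells, was at 1.53 and 1.88 against 15.7 and 10.01 RPKM (-2.96 ± 0.78, adjusted p = 0.274). Each of these was lower in both Tfh libraries. In the regulatory T cell list of 14 genes none passed and the median was -0.63. At an unadjusted p below 0.05 (edgeR) it had 5 genes lower and 1 higher, against 4.45% and 4.58% of all genes tested. Itgae, among the lower ones, was at 0.0714 and 0.690 against 6.00 and 11.8 RPKM. The higher one was Tigit, an inhibitory receptor gene of Tfh cells too, at 646 and 563 against 213 and 311 RPKM (1.15 ± 0.23, adjusted p = 0.15).

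Members of the Th17 and Th2 lists differed in direction. Of 9 Th17 genes tested none passed (median -0.64), and the cytokine genes Il17a (28.2 and 22.8 against 15.3 and 31.0 RPKM) and Il22 (172 and 73.7 against 122 and 103 RPKM) were present in both. Ahr (6.62 and 3.70 against 13.8 and 18.25 RPKM) and Ccr6 (35.9 and 40.7 against 65.3 and 128 RPKM) were lower without overlap. They were the 2 Th17 genes lower at an unadjusted p below 0.05 (edgeR), and none was higher. Over all genes tested 4.45% were lower and 4.58% higher. Of 7 Th2 genes tested none passed, with a median of 0.61. At that unadjusted p, 2 were higher and none lower: Il4 and Areg, the latter at 65.9 and 56.1 against 29.8 and 34.05 RPKM. Gata3, the Th2 regulator, overlapped at 104 and 85.5 against 124 and 98.3 RPKM (-0.27 ± 0.22), while Il4 was higher in Tfh cells as given above and Il5 was at 0 in all 4 libraries.

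Inhibitory and costimulatory receptors went opposite ways in their medians, 0.78 for 11 inhibitory and -0.51 for 11 costimulatory genes. The inhibitory list held 1 call, Pdcd1, which the gate set. Cd160, a ligand of the receptor HVEM, was at 43.4 and 37.6 against 3.36 and 8.95 RPKM (2.66 ± 0.62, adjusted p = 0.219), and Lag3 at 59.8 and 57.8 against 16.6 and 35.4 RPKM (1.12 ± 0.40). Among costimulatory genes none passed. Cd226, the activating counterpart of Tigit, was at 2.93 and 1.96 against 19.9 and 16.0 RPKM (-2.92 ± 0.50, adjusted p = 0.0856), and the TNF receptor genes Tnfrsf4 (-0.80 ± 0.20) and Tnfrsf18 (-0.84 ± 0.26) were lower in both Tfh libraries.

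Among 22 antigen receptor and immediate early genes none passed and the median was 0.01. Fos was at 2265 and 2090 against 1410 and 1270 RPKM (0.65 ± 0.13, adjusted p = 0.172), Egr2 at 108 and 102 against 59.7 and 43.2 RPKM (0.98 ± 0.27), and Dusp1 at 3618 and 2472 against 1361 and 1599 RPKM (0.99 ± 0.21). Dusp5, a phosphatase gene acting on ERK, went down, at 219 and 207 against 519 and 392 RPKM (-1.14 ± 0.18, adjusted p = 0.0676). Nr4a1, the reporter gene of antigen receptor signals, was at 1668 and 1631 against 1742 and 1923 RPKM (-0.20 ± 0.12). The list thus held 11 positive and 11 negative values.

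Cell cycle and metabolic lists gave no call. For 30 cell cycle genes the median was 0.60 and the mean 1.27, with 21 positive and 9 negative values. At an unadjusted p below 0.05, 7 were higher and none lower, where 4.58% of all genes were higher. Their summed RPKM overlapped, at 367 and 311 in Tfh against 234.5 and 336 in non-Tfh libraries. Among the 7, Cdk1 had 4 and 2 reads and Nusap1 7 and 2 in the non-Tfh libraries. Mcm6 (-0.36 ± 0.26) and Pcna (-0.33 ± 0.40) overlapped between groups. Mki67, a marker of dividing cells, was at 2.22 and 6.56 RPKM in Tfh and 0.748 and 0.450 RPKM in non-Tfh libraries (2.82 ± 0.67, adjusted p = 0.224). Of 15 glycolysis genes 12 had positive values (median 0.56). Tpi1 was at 113 and 117 against 38.1 and 23.9 RPKM (1.85 ± 0.29, adjusted p = 0.0676) and Pfkl at 59.0 and 53.2 against 15.6 and 20.3 RPKM (1.59 ± 0.30, adjusted p = 0.133), whereas Ldha was lower, at 385 and 402 against 515 and 537 RPKM (-0.47 ± 0.15, adjusted p = 0.375). Gapdh was listed at 1.81 to 2.91 RPKM, a low level whose cause was not tested. The 19 cholesterol synthesis genes tested had a median of -0.09 and a mean of -0.59.

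**Figure D4:**
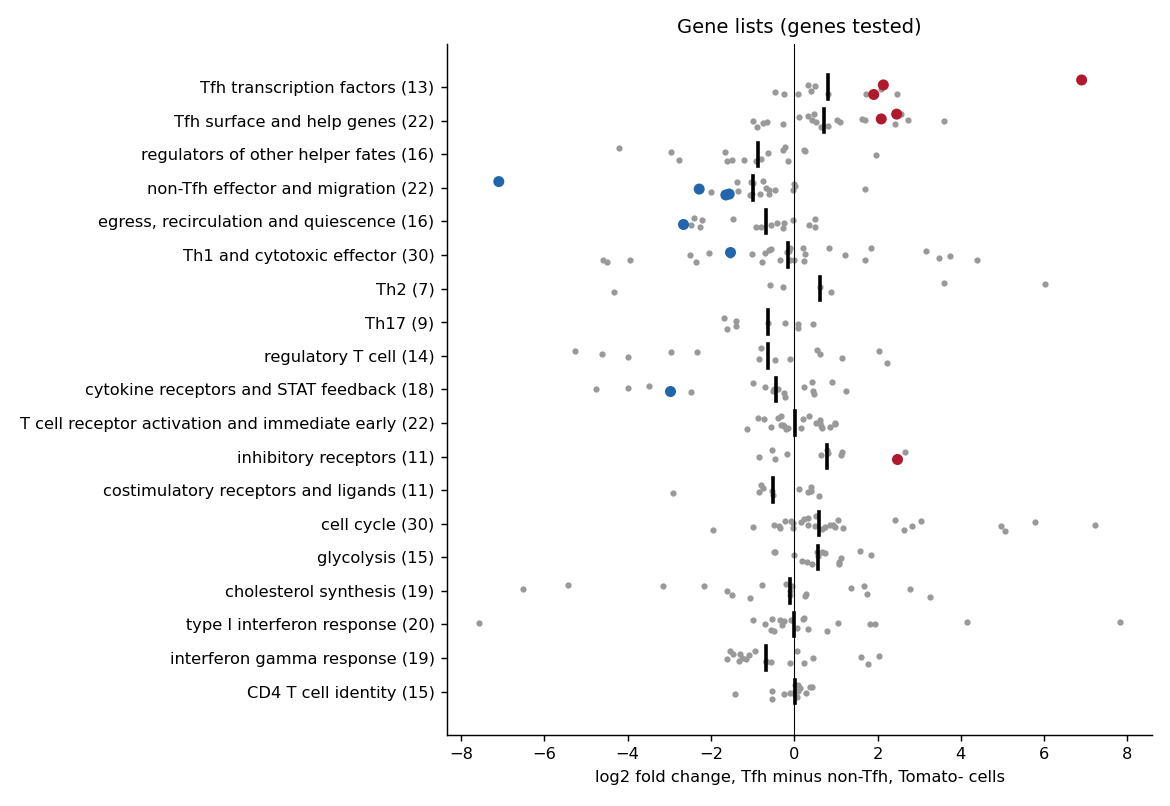
Log2 fold change of Tfh minus non-Tfh cells for each tested member of the 19 gene lists, with the number tested in brackets; black bars are medians and coloured points the genes at an adjusted p below 0.05, red higher and blue lower. The medians of the Tfh lists are 0.80 and 0.72, the latter with the gate genes Pdcd1 and Cxcr5 included. That of the non-Tfh effector list is -1.0 and that of CD4 T cell identity 0.02.

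The Tomato+ libraries of the same gates share no sample with this comparison, though both come from 1 fit with a common estimate of spread. Pdcd1 was set by the gate in both fractions and is set aside here. The other 20 genes called in Tomato- cells had the same sign in Tomato+ cells and did not overlap between groups there, where 22.3% of tested genes were higher without overlap and 17% lower. Over all tested genes 56.1% had the same sign in both. Of the 20, 17 had an unadjusted p below 0.05 in Tomato+ cells, where 8.2% of tested genes did, and 4 passed there: Ascl2 (7.29 ± 0.78), Sostdc1 (3.32 ± 0.29), Tox (2.17 ± 0.26) and Selplg (-1.27 ± 0.15). In Tomato+ cells 9 genes passed in all (0.0766%). The other 5 had smaller differences in Tomato- cells, among them Fam43a (1.998 ± 0.33, adjusted p = 0.0784) and Fos.

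The sizes were larger in Tomato- cells for 18 of the 21, Pdcd1 included, which were chosen for passing there. Bcl6 had similar values in both fractions, 2.14 ± 0.27 and 2.08 ± 0.27. S1pr1, at 239 and 247 RPKM in Tomato- non-Tfh cells, was at 150 and 121 RPKM in Tomato+ non-Tfh cells and at 69.1 and 65.5 RPKM in Tomato+ Tfh cells, so its log2 fold change was -2.68 ± 0.19 in one fraction and -1.10 ± 0.18 in the other. Abhd4 was at 17.2 and 12.9 RPKM in Tomato+ non-Tfh cells, where Tomato- non-Tfh cells had 0.758 and 1.19 RPKM, and its values were 4.96 ± 0.48 and 1.16 ± 0.41. Emp1, nearly absent from Tomato- Tfh cells, was at 7.38 and 16.1 RPKM in Tomato+ Tfh cells, with -7.09 ± 0.74 against -1.22 ± 0.56. Abcc3, nearly absent from Tomato- non-Tfh cells, was at 0.876 and 2.06 RPKM in Tomato+ non-Tfh cells. Tomato+ Tfh cells had 3.76 and 5.65 RPKM of Abcc3, and its values were 7.19 ± 0.996 and 1.57 ± 0.77.

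The difference between the fractions was tested for every gene as an interaction. No gene passed with edgeR, while 747 (6.36%) had an unadjusted p below 0.05 and DESeq2 called 210 (1.81%). The smallest p belonged to Emp1 (difference of log2 fold changes -5.87 ± 0.87), Abhd4 (3.80 ± 0.60), S1pr1 (-1.58 ± 0.25), Apoe, Tmem38b and Mmachc, all with an adjusted p of 0.677. Apoe is a macrophage gene, at 153 and 119 against 255 and 351 RPKM in Tomato- cells and at 177 and 96.0 against 42.7 and 32.5 RPKM in Tomato+ cells. Macrophage markers summed to 1269 to 1746 RPKM in the Tomato- libraries and to 245 to 647 RPKM in the Tomato+ libraries, and their part in these differences was not tested.

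**Figure D5:**
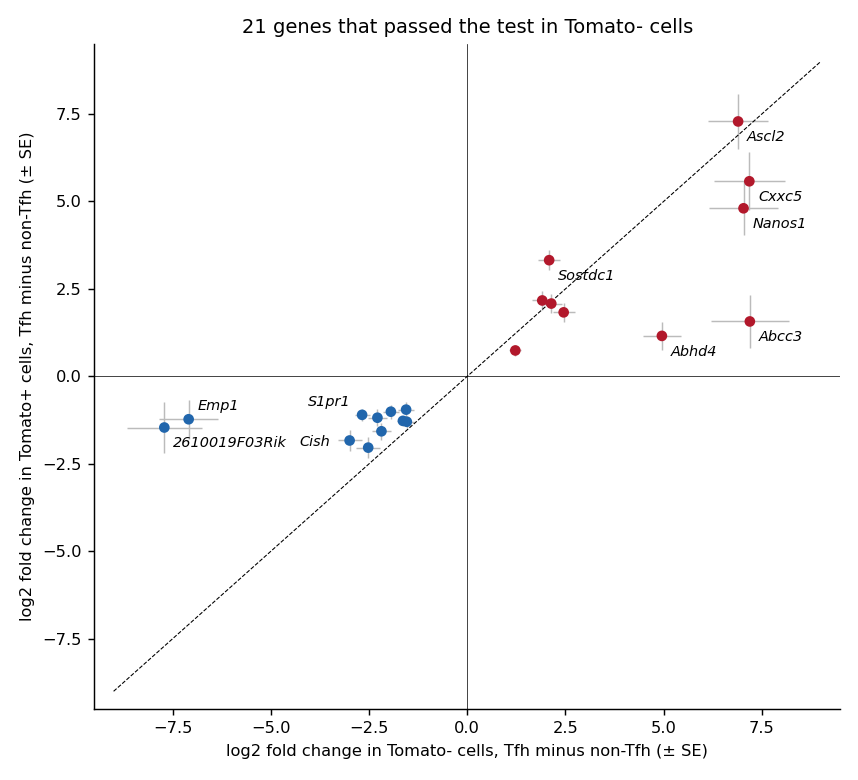
Log2 fold change of Tfh minus non-Tfh cells in Tomato+ cells against that in Tomato- cells, each ± SE, for the 21 genes that passed in Tomato- cells; the dashed line marks equal values. All 21 lie in the quadrants of equal sign, among them Pdcd1, which the gate set, Bcl6 and Ascl2 lie near the line, and Abcc3, Abhd4, Emp1 and 2610019F03Rik lie far from it.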

How the data were processed

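Polyadenylated RNA of sorted T cells was sequenced, per the labels' protocols. The authors' deposited tables give a whole-number read count and an RPKM value for each of 29257 transcript rows, 1 table per library. The submitters' processing notes list genome build mm9 and the programs Bowtie2, edgeR, CASAVA 2.18 and SICER 1.1, without the step each served. Use of strand in counting is not stated. The RPKM deposited by the authors were proportional to count divided by transcript length within 0.00098%.

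For each of 22878 symbols the row with the most reads over the 8 lymph node libraries was kept, since 4019 symbols had several rows. Paralogs and overlapping genes may share or split reads. Counts were tested with edgeR 4.0.16 in R 4.3.3 (TMM factors of 0.9633 to 1.043, filterByExpr, quasi-likelihood F test, two-sided) with 1 mean per group over the 8 libraries, which leaves 4 residual degrees of freedom, and Benjamini-Hochberg adjustment over 11746 genes. The SE is the absolute log2 fold change divided by the square root of F. DESeq2 1.42.0 and limma 3.58.1 on log2(RPKM + 1) were alternatives, beside other filters and factors, left-out libraries and a replicate block.

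Members, gene lists and markers were chosen with earlier results of these data known, so lists are described by counts and medians only. Named genes are Tbx21, Ifng, Bcl6, Cxcr5 and Pdcd1, up to 12 largest rises and falls and 10 smallest adjusted p per direction among called genes that do not overlap and reach 5 RPKM, in every list up to 4 members of smallest p, Tfh list members of at least 5 RPKM, the 2 highest of each marker list and 6 genes of the smallest interaction p, with gene models (Rik, Gm and LOC names) left out. Further genes given for their levels were chosen after their values were seen. Symbols were looked up in current tables, where 20324 were found and 2344 matched an older synonym. Spleen and DNase libraries were not used here.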

Additional observations from a re-analysis of the deposited data

How the results depend on the processing

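In Tomato- cells the 21 calls became 607 with DESeq2, 441 with DESeq2 on the 4 Tomato- libraries alone, 43 with limma on log2(RPKM + 1), 51 without a filter on low counts and 9 with summed transcript rows, and 0 with edgeR on the 4 libraries alone or without both Tomato- replicate 2 libraries; the cause was not tested. Leaving out each of the 8 libraries in turn gave 6 to 24 calls. Median-of-ratios factors gave 22, robust estimation 22, a filter of 5 RPKM 29 and a limma pseudocount of 0.1 gave 26. All 21 calls were kept by DESeq2, by median-of-ratios factors, by robust estimation and without a filter, 17 by limma and 9 with summed rows. No called gene changed sign under any setting run. Of 141 genes followed, 19 that did not pass changed the sign of their log2 fold change in 35 combinations of gene and setting, none with an adjusted p below 0.687; the cause was not tested.

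When 1 library was left out, values ranged from -0.63 to 2.70 for Ifng, -0.18 to 0.83 for Batf, -0.12 to 0.37 for Cd40lg, -0.061 to 0.84 for Id3, -0.065 to 2.15 for Fas, -1.09 to 0.011 for Rora and -0.82 to 0.53 for Tmem38b. Among markers of other cells the ranges were -0.94 to 1.38 for Cd8a, -0.38 to 1.02 for Cd8b1, -0.24 to 0.15 for Ctss, -7.50 to 0.35 for Derl3, -6.82 to 9.10 for both Hba-a1 and Hba-a2, -1.22 to 0.28 for Igj, -1.39 to 0.19 for Il1b, -0.72 to 0.21 for Pecam1, -6.76 to 5.97 for Retnlg, -3.83 to 7.30 for S100a8 and -7.04 to 0.033 for Tnfrsf13c. Without both Tomato- replicate 2 libraries Pecam1 was at 0.47, Retnlg at 3.89 and Rora at 0.11. With limma Cd8a was at 0.085 (pseudocount 1) and 0.14 (pseudocount 0.1), and Tmem38b was at 0.0015 with summed rows, 0.025 with a filter of 5 RPKM and 0.011 with the 4 libraries alone.

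The 9 calls in Tomato+ cells became 465 with DESeq2, 29 and 23 with limma (pseudocounts 1 and 0.1), 50 without a filter, 18 with a filter of 5 RPKM, 0 with summed rows, 0 with the 4 Tomato+ libraries alone (1115 at an unadjusted p below 0.05), 0 without both Tomato- replicate 2 libraries (1082) and 0 to 12 when 1 library was left out. The interaction gave 210 calls with DESeq2 and 0 under every other setting run, with 471 to 1203 genes at an unadjusted p below 0.05. The left-out Tomato+ libraries and DESeq2 on 4 libraries were chosen after seeing the data.

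Replicate numbers are shared between groups, but deviations of same-numbered libraries correlated only from -0.0133 to 0.0281, so the numbers were not taken as pairs. That correlation runs over all tested genes and cannot show a difference shared by few of them. Neutrophil sums did split by replicate number in the Tomato- libraries, as given above. In the Tomato+ libraries they did not (1.66 and 101.1 RPKM in replicate 1, 8.36 and 11.06 RPKM in replicate 2 of Tfh and non-Tfh cells). With a replicate block 22 genes passed in Tomato- cells (18 of the 21, without Tox, Crip1 and Abcc3), 1 in Tomato+ cells and 0 for the interaction. The fit had 2 libraries a group and a common coefficient of variation of 0.908. Genes at few reads, such as Abcc3 and Emp1 in one of their groups, are also limited by depth.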

Other observations

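At the wider limit of an adjusted p below 0.1 (edgeR), 20 genes were higher and 36 lower in Tfh cells, the 21 called genes included. Among them, picked after their values were seen, Padi4, which encodes a peptidylarginine deiminase, was at 69.9 and 33.0 RPKM in Tfh libraries and at 0.483 and 0.639 RPKM in non-Tfh libraries (log2 fold change 6.47 ± 1.09, adjusted p = 0.0842). Rgs16, a regulator of G protein signalling, was at 57.6 and 105 against 8.11 and 8.05 RPKM (3.28 ± 0.54, adjusted p = 0.0784). Both were higher in each Tfh library of the Tomato+ fraction too, with Padi4 at 40.6 and 47.2 against 0.212 and 2.32 RPKM and Rgs16 at 64.7 and 49.9 against 10.4 and 28.1 RPKM.

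Mmachc, a cobalamin metabolism gene, was at 3.42 and 3.71 RPKM in Tomato- Tfh cells and 0.0213 and 0.0546 RPKM in Tomato- non-Tfh cells, but at 0.0382 and 0.0444 against 8.79 and 6.55 RPKM in Tomato+ cells. Its log2 fold changes thus had opposite signs in the fractions (6.43 ± 1.67 and -7.54 ± 1.75), and the interaction had an adjusted p of 0.677. The Tomato- non-Tfh libraries held only 1 and 2 reads of Mmachc, and its Tomato+ Tfh levels were similarly low. Tmem38b was at 5.70 and 14.5 against 6.91 and 12.6 RPKM in Tomato- cells and at 14.1 and 9.05 against 0.0901 and 0.0782 RPKM in Tomato+ cells.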
